A study of Homo sapiens with 2 samples.

Results

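The complement and coagulation factors are secreted proteins, most of them made by hepatocytes, that form blood clots, dissolve them and mark foreign surfaces for removal. The set held 40 named genes of these pathways, 22 of coagulation and fibrinolysis and 18 of complement, and a probe counted as a member's where its RefSeq transcript belonged to the gene. A probe matched 39 of the 40 genes, and CPB2, which encodes a carboxypeptidase that slows clot lysis, had no matching probe. Of these, 36 were well above background, as the scanner software flags a spot, on at least 1 array, among 23752 genes and unnamed transcripts with such a signal.

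RNA of HepG2, an established human hepatocellular carcinoma cell line, was measured on 1-colour Agilent arrays. One array held RNA of cells that received DMSO alone at 1‰, the solvent, and the other held RNA of cells that received hawk tea extract (HTE), an ethanol extract of hawk tea leaves, at 200 µg/mL per the labels, both for 24 h. A higher dose stands in the study's text. There was 1 array per condition, so no difference below has a replicate check and none carries a p-value, an SD between cultures or a test between conditions. The comparison asks which transcripts of this cell line differed after exposure to the extract, and each ratio describes this pair of RNA samples.

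Of 58717 spots that are not controls, 60.6% on the DMSO array and 56.6% on the HTE array were well above background, and both arrays lay on the same slide and in the same scan. All 10 hepatocyte markers checked (among them ALB, TTR and APOB) were well above background on both arrays, with summed signals of 867000 with DMSO and 858000 with HTE. Of the markers of other liver cells, 3 of 7 endothelial genes were well above background on each array, with summed signals of 1760 and 1300. Of these 3, PECAM1 went from 804.2 to 202.8 and VWF from 181.8 to 104.0, while ESAM went from 685.7 to 918.2. The macrophage and leukocyte list gave 3 of 8 on each array, with sums of 5740 and 3460. Within it CD14 went from 2647 to 688.4 and C1QB from 643.3 to 340.4, while PTPRC gave 2351 and 2297. The stellate cell and fibroblast list gave 4 of 7 with DMSO and 3 of 7 with HTE, with sums of 21500 and 21100, and its ACTA2 probe read 19920 and 19840. The part of these markers in the results below was not tested, and in such bulk RNA fewer cells with a transcript and less transcript per cell cannot be told apart.

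Coagulation runs as a cascade in which one protease activates the next until thrombin cuts fibrinogen into fibrin, while antithrombin, protein C and tissue factor pathway inhibitor hold it in check and plasmin dissolves the clot. Complement starts from antibodies through C1, from sugars on microbes through mannose-binding lectin, or spontaneously through C3, and all routes meet at C3 and end in a membrane pore. The liver makes most of these proteins, and several of them rise in the acute phase response to inflammation.

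Values are processed signals in arbitrary units, and each log2 ratio of HTE over DMSO was taken after subtracting each array's 75th percentile of log2 signal (percentile signals of 4020 and 3570 with DMSO and HTE). A gene whose 2 raw signals are alike therefore has a ratio slightly above 0. Each ratio compares the arrays within 1 probe, and the signals of different genes are not ranked against each other, the summed marker signals being totals of unlike probes. A gene was counted as changed at a ratio of at least 2-fold, that is 1 on the log2 scale. Where a probe was not well above background on 1 array, the ratio is a bound, taken from the higher of its own signal and the lowest signal well above background there. Where its own signal is the higher, as for PLG and C5AR1, the ratio is that of the 2 signals and not a lower limit.

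The genes of the set that passed 2-fold were 5. MASP1 and VTN were higher with HTE, and KNG1, FGA and MBL2 were lower. That is 5 of 36, or 13.9%, against 1968 of 23752 genes and transcripts on the whole array, or 8.29%, of which 5.25% were higher and 3.03% lower. The share among members is a count of a few genes in a single pair of arrays and was not tested. The median log2 ratio of the 36 was 0.084, with 21 above 0 and 15 below, and that of all genes was 0.0, with 45.7% above 0 and 1272 genes seen on 1 array held at exactly 0 by the bound. Of the 33 members well above background on both arrays, FGA, MBL2 and VTN passed 2-fold, against 7.24% of such genes on the whole array, and 20 of the 33 were above 0, against 49.5%. Ratios within 0.5 of 0 on the log2 scale held 20 of the 36 members, or 55.6%, and 71.7% of all genes, and among genes well above background on both arrays they held 20 of 33 members, or 60.6%, and 71.9% of all. This difference was not tested. The direction of most ratios above 0 depended on the scaling, since with the arrays scaled to the added E1A control RNA every one of the 36 except MASP1, which came to 0.0, was below 0.

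**Figure D1:**
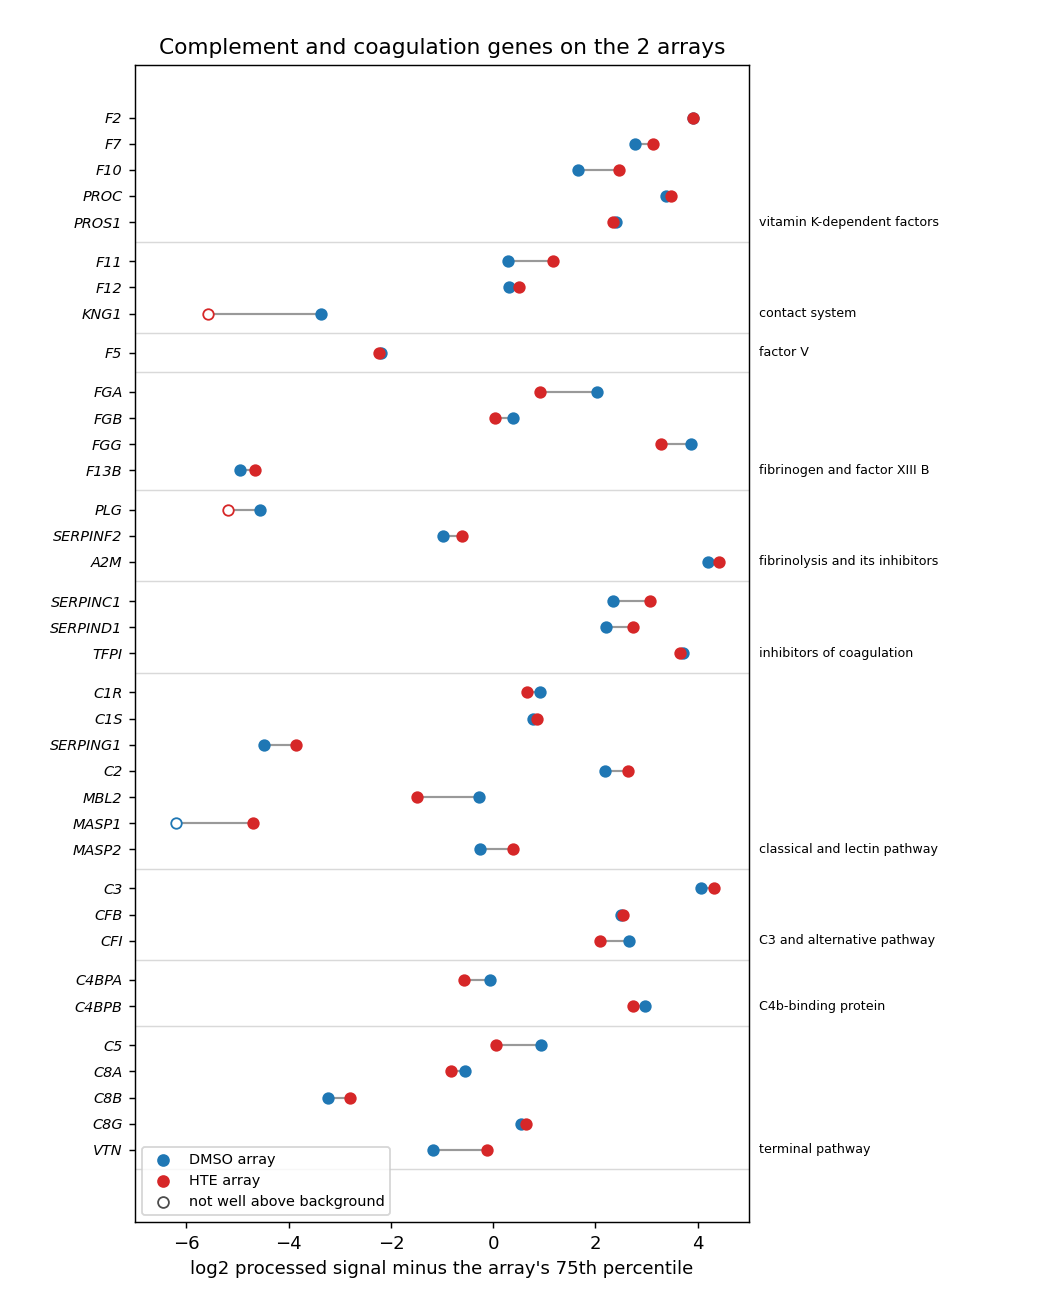
Level of each of the 36 measured genes on the DMSO array (blue) and the HTE array (red), as log2 processed signal minus that array's 75th percentile, grouped by role; open points were not well above background. KNG1, FGA and MBL2 lie furthest to the left of their DMSO points and MASP1 and VTN furthest to the right. The side on which a point lies holds for scaling to the 75th percentile, and VTN turns lower with spike-in scaling.

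**Figure D2:**
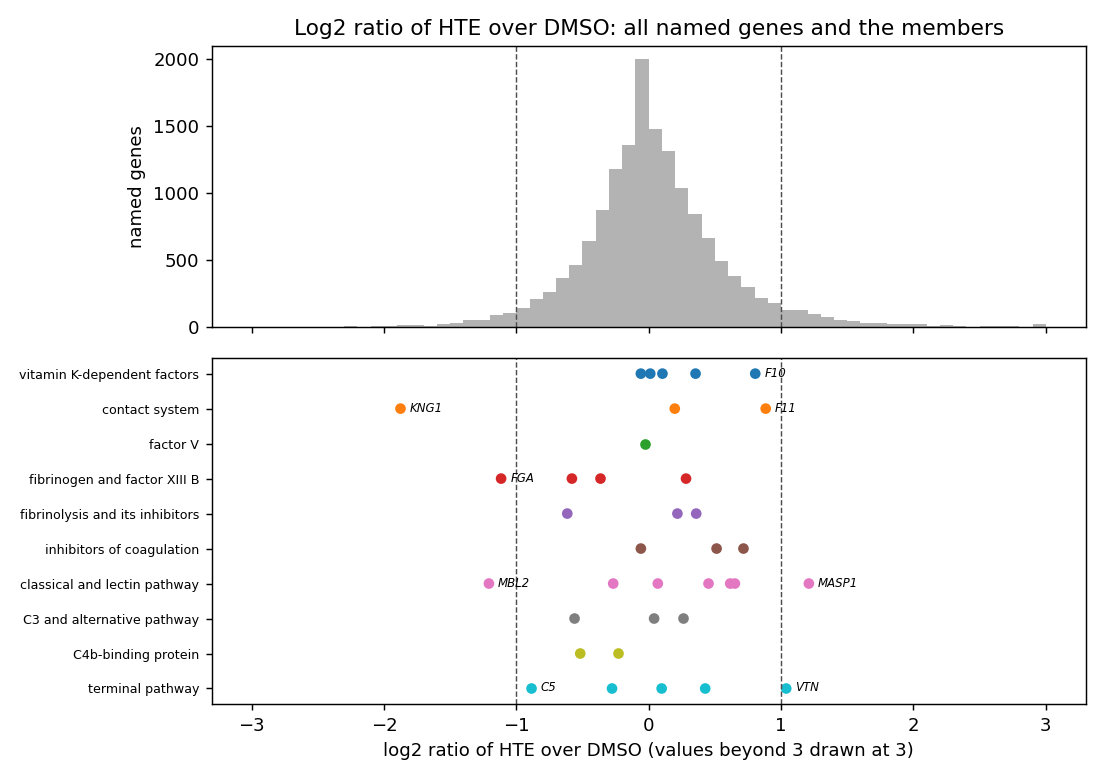
Number of named genes (top) by log2 ratio of HTE over DMSO, and the 36 members (bottom, coloured by the role named at the left), with dashed lines at 2-fold and genes labelled where the ratio is at least 0.8 either way. Members past the lines are KNG1, FGA and MBL2 below and MASP1 and VTN above; scaled to the spike-in probes the members shift to a median of -1.29 and VTN falls below 0.

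The fibrinogen genes moved in 1 direction. Fibrinogen is the precursor of fibrin and is built from 3 chains encoded by FGA, FGB and FGG, which lie next to each other on chromosome 4 with no other protein-coding gene between them. FGA, the alpha chain, gave 16420 with DMSO and 6736 with HTE, a log2 ratio of -1.11, or 2.17-fold lower. Its other probes read 2564 and 957.7 (-1.25) and 1514 and 518.2 (-1.38), so all 3 probes were past 2-fold. FGG, the gamma chain, went from 58750 to 34920, a ratio of -0.58 or 1.49-fold. FGB, the beta chain, went from 5280 to 3643, a ratio of -0.36 or 1.29-fold, so neither FGG nor FGB passed 2-fold. The median of the 3 chains was -0.58, and all 3 were below 0 under each of 12 alternative settings. Of these settings, spike-in scaling, scaling to the median and no scaling lower the ratios and could not have brought the chains above 0. FGB and FGG each have a single probe, and the filters, bounds and choice of probe left their ratios unchanged. F13B, the carrier subunit of the fibrin-crosslinking factor XIII, gave 130.5 and 140.9, a ratio of 0.28.

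Promoter windows of these genes and of the others past 2-fold are shown because the members are liver genes whose promoters are known to carry sites for hepatocyte factors. They hold the 250 bases before a transcription start listed by RefSeq on GRCh38.p14, 5′ to 3′ on the gene's strand, with matches in capitals. The motifs were searched on both strands and may overlap. They were GTTAAT (an HNF1 half-site), CAAAGNNCA (HNF4), TTGCNNAA (C/EBP), TGTTTNC (FOXA), CTGGGAA (the type II element of acute phase genes) and TATAAA (the box bound by the general transcription factor TBP), chosen after the gene values were seen.
FGA, chr4:154590743-154590992, minus strand: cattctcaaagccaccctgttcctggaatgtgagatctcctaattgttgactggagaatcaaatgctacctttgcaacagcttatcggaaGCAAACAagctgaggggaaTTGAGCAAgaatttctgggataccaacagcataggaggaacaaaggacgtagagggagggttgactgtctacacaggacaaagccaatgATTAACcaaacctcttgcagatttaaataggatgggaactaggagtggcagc
FGB, chr4:154562730-154562979, plus strand: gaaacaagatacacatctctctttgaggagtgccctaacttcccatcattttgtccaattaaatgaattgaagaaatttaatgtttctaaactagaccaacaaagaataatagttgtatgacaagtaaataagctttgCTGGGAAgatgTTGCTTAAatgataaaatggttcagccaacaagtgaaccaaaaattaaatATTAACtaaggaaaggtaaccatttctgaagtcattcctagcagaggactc
FGG, chr4:154612657-154612906, minus strand: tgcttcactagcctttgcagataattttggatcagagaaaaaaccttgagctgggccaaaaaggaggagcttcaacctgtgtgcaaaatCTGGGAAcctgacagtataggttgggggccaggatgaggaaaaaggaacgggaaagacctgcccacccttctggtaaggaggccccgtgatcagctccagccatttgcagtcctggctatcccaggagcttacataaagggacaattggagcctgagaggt
MBL2, upstream start, chr10:52772785-52773034, minus strand: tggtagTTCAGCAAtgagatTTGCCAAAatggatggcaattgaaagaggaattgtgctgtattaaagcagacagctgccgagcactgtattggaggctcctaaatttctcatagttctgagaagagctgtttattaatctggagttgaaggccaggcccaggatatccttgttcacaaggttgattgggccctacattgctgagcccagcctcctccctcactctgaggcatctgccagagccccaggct
MBL2, downstream start, chr10:52771653-52771902, minus strand: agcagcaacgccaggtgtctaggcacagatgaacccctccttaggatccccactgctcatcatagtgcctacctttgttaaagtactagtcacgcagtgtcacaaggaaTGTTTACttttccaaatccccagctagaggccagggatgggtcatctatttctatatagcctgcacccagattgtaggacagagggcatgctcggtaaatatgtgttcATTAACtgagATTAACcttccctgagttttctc
KNG1, chr3:186717109-186717358, plus strand: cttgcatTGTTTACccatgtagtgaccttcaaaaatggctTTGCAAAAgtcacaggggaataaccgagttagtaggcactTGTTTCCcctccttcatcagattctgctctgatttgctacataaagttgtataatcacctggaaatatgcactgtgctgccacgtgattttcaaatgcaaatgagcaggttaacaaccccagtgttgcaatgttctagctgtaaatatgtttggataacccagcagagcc
MASP1, chr3:187291738-187291987, minus strand: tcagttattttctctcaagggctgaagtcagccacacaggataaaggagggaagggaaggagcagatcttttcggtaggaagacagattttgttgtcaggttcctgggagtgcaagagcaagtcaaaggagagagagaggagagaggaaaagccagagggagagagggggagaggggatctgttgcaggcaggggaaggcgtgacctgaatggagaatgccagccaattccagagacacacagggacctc
VTN, chr17:28370308-28370557, minus strand: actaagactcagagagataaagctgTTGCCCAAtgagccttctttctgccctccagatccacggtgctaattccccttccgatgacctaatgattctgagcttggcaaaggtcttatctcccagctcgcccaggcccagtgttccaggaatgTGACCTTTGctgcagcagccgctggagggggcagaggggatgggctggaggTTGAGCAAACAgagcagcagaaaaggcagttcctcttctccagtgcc

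In these windows FGA held the HNF1 half-site 52 to 47 bases before its start and FGB held it 51 to 46 bases before its first listed start, while the FGG window held none. FGA and FGB each also held a C/EBP match, at 141 to 134 and at 101 to 94 bases. FGB and FGG held the acute phase element at 112 to 106 and at 161 to 155 bases. The downstream MBL2 start had a pair of HNF1 half-sites, at 33 to 28 and 23 to 18 bases, and its upstream start a pair of C/EBP matches. KNG1 held a C/EBP match and a pair of FOXA matches, while MASP1 held no match. VTN held an HNF4 match at 98 to 90 bases, C/EBP matches at 225 to 218 and 47 to 40 bases and a FOXA match that overlaps the latter.

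Over all 35116 windows in the table, 6.23% held the HNF1 half-site, against 12 of the 43 windows listed for 33 of the members, or 27.9%. The 15 members with a ratio below 0 had 22 windows and the 14 above 0 with a window had 16, so the former had more chances of a match. The HNF1 half-site was in a window of 8 of the 15 and 2 of the 14 (9 of 22 and 2 of 16 windows), FOXA of 8 and 4, C/EBP of 5 and 2, the acute phase element of 4 and 2, HNF4 of 1 and 2, and TATAAA of 0 and 2. Over all windows the C/EBP motif was in 9.05% of all windows and 30.2% of the members' windows, FOXA in 15.5% and 30.2%, HNF4 in 4.44% and 11.6%, the acute phase element in 9.15% and 20.9%. TATAAA was the one motif rarer among the members' windows, in 2 of 43, or 4.65%, against 3763 of 35116. Windows of 1 gene share sequence, a match is a run of letters and not a bound site, and none of these shares was tested.

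Among the vitamin K-dependent factors, which need a carboxylated domain to bind membranes, 5 of 6 were measured, none passed 2-fold and their median was 0.10. F10, the protease that forms thrombin, gave 12710 and 19720, a ratio of 0.80 or 1.75-fold. Its chromosomal neighbour F7, which starts the cascade with tissue factor, gave 27470 and 31190, a ratio of 0.35. F2, prothrombin, gave 60240 and 53930, a ratio of 0.01. Within this group F10 alone lay further than 0.5 from 0. PROC, the precursor of the anticoagulant protease protein C, gave 41770 and 39880 (0.10) on its brightest probe and 8563 and 12560 (0.72) on another. PROS1, its cofactor protein S, gave 21160 and 18040 (-0.06), and its 4 probes ran from -0.41 to 0.04. F9, factor IX, was not well above background with DMSO or with HTE, with signals of 13.6 and 19.7.

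The contact system, which starts clotting on charged surfaces and releases bradykinin, spanned nearly the whole range of the members. KNG1, kininogen, the source of bradykinin, gave 390.9 with DMSO and 74.6 with HTE, where it was not well above background, and was thus at least 3.67-fold lower (-1.88). KNG1 came to -1.01 with the normexp background correction, close to the 2-fold line. F11, factor XI, gave 4914 and 8053, a ratio of 0.88 or 1.84-fold, with 0.79 on its other probe. F12, factor XII, gave 5013 and 5103 (0.20). KLKB1, plasma prekallikrein, was not well above background with DMSO or with HTE, with 72.1 and 96.0. F5, the cofactor of factor X, gave 876.2 and 764.3, a ratio of -0.03.

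Of the 3 inhibitors of coagulation in the set, 2 were above 0 and none passed 2-fold. The share above 0 among all genes seen on both arrays was 49.5%, and so small a count was not tested against it. Inhibitors outside the set, in the list of other coagulation genes, had ratios on both sides of 0 and are not counted here. SERPINC1, antithrombin, gave 20420 and 29780, a ratio of 0.72 or 1.64-fold. SERPIND1, heparin cofactor II, gave 18630 and 23620, a ratio of 0.51. TFPI, tissue factor pathway inhibitor, gave 53030 and 45220 (-0.06) on its brightest probe and 43870 and 49600 (0.35) on a probe of another transcript. The TFPI probes thus disagreed in sign. In fibrinolysis, PLG, plasminogen, gave 169.3 and 98.2, not well above background with HTE, and was 1.53-fold lower on these signals (-0.61). With the normexp background correction PLG came to -0.22, so this ratio depends on the background correction. SERPINF2, the plasmin inhibitor, gave 2049 and 2333 (0.36). A2M, a broad protease trap, gave 74100 and 76510 (0.22).

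F2, F7, A2M and SERPINC1 have a probe printed several times on each array, which gives the scatter of spots within this pair of arrays. F2 gave log2 ratios of -0.06 to 0.08 over 10 spots, with a mean of 0.01 ± 0.055 (SD of spots). F7 gave 0.18 to 0.51 over 10 spots (0.35 ± 0.085), and A2M gave 0.19 to 0.29 over 8 usable spots (0.22 ± 0.034). SERPINC1 gave 0.64 to 0.75 over 10 spots (0.72 ± 0.035), so its spots did not overlap those of the other genes. Over all 688 repeated probes the median SD was 0.051, rising to 0.14 for signals under 500, and it covers printing and scanning only. This scatter is not that between cultures.

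**Figure D3:**
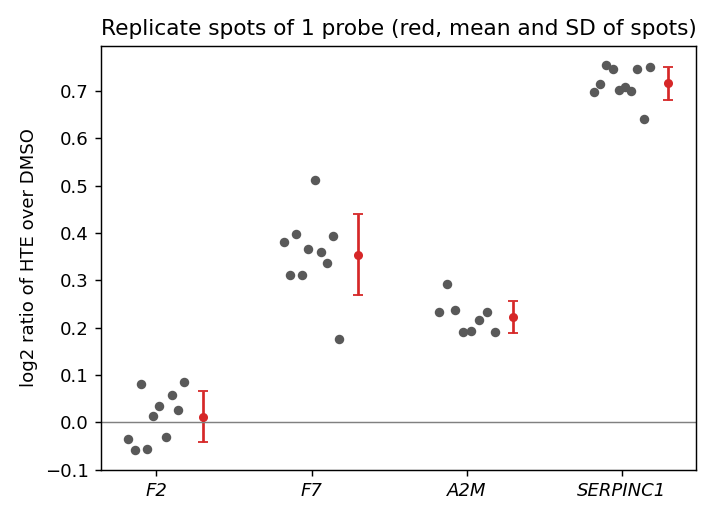
Log2 ratio of HTE over DMSO (vertical axis) of each repeated spot of F2, F7, A2M and SERPINC1 (grey), with the mean and SD of spots in red. SERPINC1 lies at 0.64 to 0.75, above the other genes, and F2 straddles 0; with spike-in scaling all 4 genes lie below 0.

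In the classical and lectin pathways of complement, 7 of 7 members were measured, with a median of 0.45, and 1 member passed 2-fold in each direction, MASP1 upward and MBL2 downward. MBL2, mannose-binding lectin, which recognises sugars on microbes, gave 3310 and 1273, a ratio of -1.21, or 2.31-fold lower. The MASP1 gene encodes proteases that MBL2 carries and also MAp44, a shorter product without the protease domain, and the MASP1 probe reported here is annotated to the MAp44 transcript. It gave 54.6, not well above background, with DMSO and 136.9 with HTE, and was at least 2.31-fold higher. The other MASP1 probe, annotated to a protease transcript, gave 21.8 and 19.4 and was not well above background with DMSO or with HTE, and with normexp the ratio of the MAp44 probe came to 0.72. MASP2 likewise encodes a protease that cuts C4 and C2 and a short product without that domain, MAp19. Its brightest probe, annotated to the MAp19 transcript, gave 3347 and 4668 (0.65), and its probe of the protease transcript gave 198.2 and 258.3 (0.55). Whether these probes also bind the longer transcripts was not tested.

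C2, part of the C3-cutting enzyme, gave 18350 and 22300 (0.45) on its brightest probe and 5712 and 8590 (0.76) on the other. C1R and C1S encode the neighbouring proteases of C1, with 7627 and 5627 (-0.27) for C1R and 6939 and 6464 (0.07) for C1S. SERPING1, the inhibitor of these proteases, gave 180.9 and 246.4 (0.62), and its other probes were not well above background.

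C3, on which the pathways meet, gave 67180 and 71590 (0.26), with 0.54 on its other probe. CFB, factor B of the alternative pathway, gave 22710 and 20750 (0.04). CFI, the protease that inactivates C3b and C4b, gave 25350 and 15270 (-0.56), with -0.91 on its other probe. Its cofactor, C4b-binding protein, has chains encoded by the neighbouring genes C4BPA, with 3860 and 2396 (-0.52), and C4BPB, with 31330 and 23760 (-0.23). These 3 inhibitor genes were below 0 and none passed 2-fold. CD55, a membrane regulator next to C4BPA, had a ratio of 0.69, so these neighbours lay on opposite sides of 0.

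In the terminal pathway 5 of 6 members were measured. C5, from which the pore assembly starts, gave 7702 and 3704, a ratio of -0.89 or 1.85-fold, just inside the line, which it passed with no scaling (-1.06). VTN, vitronectin, which binds the nascent pore and also cell adhesion receptors, gave 1789 and 3265, a ratio of 1.04 or 2.05-fold higher. VTN was just past 2-fold, and came to 0.96 with scaling to the array median, 0.99 with normexp and 0.87 with no scaling. The chains of C8, a component of the pore, differed. C8A gave 2757 and 2020 (-0.28), its neighbour C8B 427.6 and 510.5 (0.43), and C8G 5859 and 5571 (0.10) with -0.56 on its other probe. C6 was not well above background with DMSO or with HTE, with 13.9 and 19.4.

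**Figure D4:**
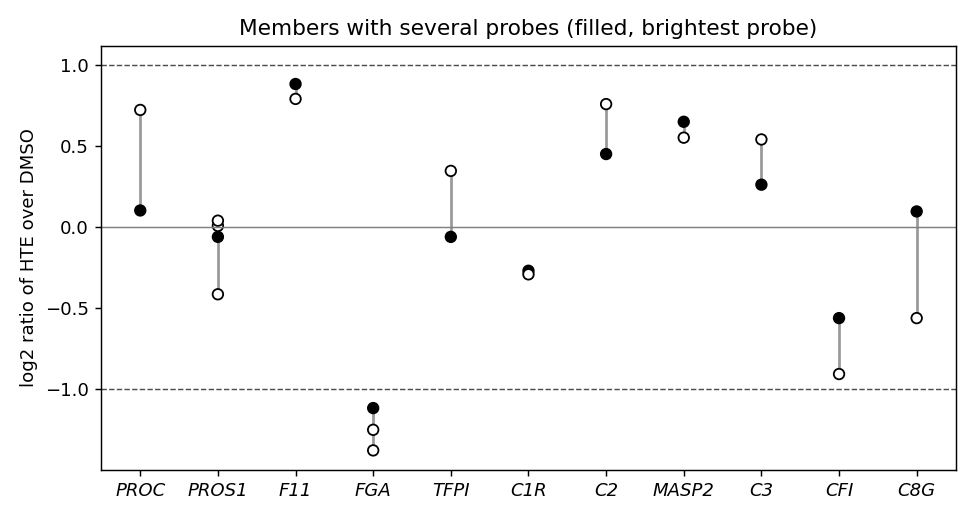
Log2 ratio of HTE over DMSO of every probe well above background for the 11 members with several such probes, brightest probe filled. The probes of C8G, PROS1 and TFPI lie on both sides of 0 and those of the other 8 on 1 side; with spike-in scaling the ratios shift to lower values.

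Several probes were well above background for 11 members, and 8 of these members had the same sign on all probes, while C8G, PROS1 and TFPI had both signs. The SD between the probes of a member had a median of 0.21, against 0.16 over 3759 genes with several probes. Under the settings other than spike-in scaling, 30 of the 36 members kept their sign, 16 of them above 0 and 14 below, and F2, PROC, TFPI, C1S, CFB and C8G did not. With all 12 settings, 14 members kept their sign, all of them below 0. Spike-in scaling shifts the median of all genes by -1.36, more than the highest member ratio of 1.21. Members above 0 therefore could not keep their sign with it, and members below 0 could not lose theirs. Scaling to the median and no scaling also only lower the ratios, and the choice of probe cannot move a member with a single probe.

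**Figure D5:**
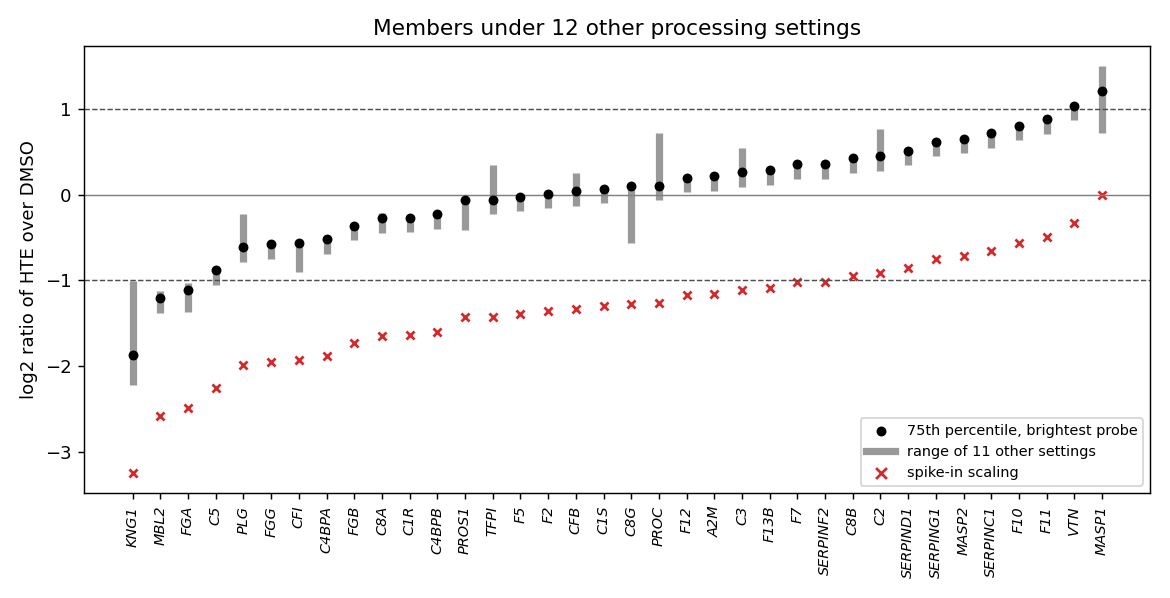
Log2 ratio of HTE over DMSO of the 36 members, ordered by the reported value (black), with the range over 11 other settings (grey) and the value with spike-in scaling (red crosses). FGA and MBL2 stay past 2-fold under all 12 settings and KNG1 under the 11 that give it a value (it has none with probes well above background on both arrays only), while VTN and MASP1 cross the upper line and VTN turns to -0.33 with spike-in scaling.

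Genes around the members were taken from lists. Of 31 other complement genes 20 were measured, with a median of 0.17. C5AR1, the receptor of the C5 fragment, was higher at 4.72-fold, with 71.8 with DMSO and 300.8 with HTE. Its DMSO signal was not well above background, so this ratio rests on a dim value. C1QB was the lowest at -0.75. Of 22 other genes of coagulation and fibrinolysis 18 were measured, with a median of 0.36. F2RL1, a protease-activated receptor, was higher at 1.21, SERPINE2, a thrombin inhibitor, at 1.15, and PLAUR, the urokinase receptor, at 1.15, and F3, tissue factor, was the lowest at -0.92. Higher by 2-fold were 1 of the 20 and 3 of the 18, against 5.25% of all genes. No gene of either list was lower by 2-fold, against 3.03% of all genes. These counts are small and were not tested. With spike-in scaling the median of all genes shifts by -1.36, so these ratios are relative to the array.

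The 6 enzymes and cargo receptors that carboxylate or export clotting factors had a median of -0.15, and none passed 2-fold, from -0.26 for VKORC1L1 to 0.08 for VKORC1. Among them LMAN1 gave 109.9 with DMSO and 54.8, not well above background, with HTE, so its ratio of -0.045 is only a bound. Of 12 hepatocyte transcription factors, CEBPA passed 2-fold, with 27380 and 10850 (-1.16), and CEBPB was the highest, with 38290 and 53490 (0.65). Of 14 measured acute phase proteins outside the set, with a median of -0.04, 2 were lower by 2-fold, against 3.03% of all genes. They were HAMP, the iron hormone hepcidin, at -2.25, the lowest, and HPX, the haem carrier hemopexin, at -1.16. ITIH3 was the highest at 0.66. Of 18 other secreted liver proteins, 17 were well above background on both arrays, and 16 of these lay within 0.5 of 0, from -0.45 for SERPINA7 upward, ITIH1 being higher at 1.35. The remaining protein of that list, GC, gave 85.9 with DMSO and 35.7, not well above background, with HTE, and its bound shows no difference. Of the 13 acute phase proteins well above background on both arrays 9 lay within 0.5 of 0, and of 17 such genes of the other coagulation and fibrinolysis list 5 did, against 20 of 33 members.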

How the data were processed

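RNA of HepG2 cells was labelled with Cy3 and hybridised to 1 array per condition. The authors deposited the scanner output, whose processed signal is a background-subtracted intensity on a linear scale. The file headers name Feature Extraction 11.5.1.1 and the submitters' processing notes 10.7. Here control and outlier spots were dropped, log2 intensity was centred on each array's 75th percentile, spots of a probe were averaged, and probes were retained if the share of spots flagged as well above background reached 0.5 on either array. Probes were named through RefSeq accessions (GRCh38.p14 table), and the brightest kept probe stood for a gene. The lowest probe signal flagged as well above background was 66.6 with DMSO and 94.6 with HTE, which limits dim genes.

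No test was run between conditions. Alternatives covered background correction, scaling, filters, bounds and the choice of probe. Python 3.11.15 with numpy 2.4.6 and pandas 2.3.3, also for quantile normalization, and, for normexp alone, R 4.3.3 with limma 3.58.1 were used. The calculation was tested on simulated data. The members and lists were chosen with earlier results of these data known. Every member was named, and of the lists around them the genes past 2-fold and the highest and lowest. Of acute phase and other secreted proteins only the highest and lowest were planned, and HPX, past 2-fold, and GC were named besides. CD55 was named as a neighbour of C4BPA, and LMAN1 because its ratio is a bound.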

Additional observations from a re-analysis of the deposited data

How the results depend on the processing

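No paired analysis was possible because each condition has 1 array, and for the same reason no array could be left out. The number of members higher by 2-fold was 2, and it was 0 with normexp, 1 with scaling to the median, 1 with no scaling, 0 with spike-in scaling and 1 with probes well above background on both arrays only. At 1.5-fold it was 7 and at 3-fold 0. The number lower was 3, and it was 26 of 36 with spike-in scaling, 4 with no scaling and 2 with probes well above background on both arrays only. It was 5 at 1.5-fold and 1 at 3-fold. Of all 23752 genes, 720 were lower by 2-fold as reported, 18506 with spike-in scaling and 1209 with no scaling. Those higher were 1248 as reported, 825 with normexp, 1073 with scaling to the median, 883 with no scaling and 112 with spike-in scaling. With probes well above background on both arrays only, 901 of 21002 genes were higher and 621 lower. The median of the members was 0.15 with normexp, 0.0035 with scaling to the median, -0.088 with no scaling and -1.29 with spike-in scaling. VTN turned from 1.04 to -0.33 with spike-in scaling. The spike-in shift is the median over 8 E1A probes, whose own differences ran from 0.45 to 1.57. No scaling moves the median of all genes by -0.16. The cause of these moves was not tested. Signals near background give bounds for KNG1 and MASP1 and a ratio on a dim value for PLG, which limits these genes.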
